A study of Homo sapiens with 12 samples.

Results

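Activator protein 1 (AP-1) and the immediate early factors were followed here as 9 genes after knockdown of YTHDC1 in A549, a cell line established from a human lung carcinoma. The members were FOS, FOSL1 and FOSL2 of the FOS family, JUN, JUNB and JUND of the JUN family, the zinc finger factor EGR1, and the immediate early response genes IER2 and IER3. They were taken by symbol, with no threshold on their values, and all 9 had a single row among the 22564 genes of the table. Total RNA was sequenced from 2 groups of 6 libraries, siYTHDC1 and siSCR, a scrambled control. In both groups the siRNA was at 40 nM for 48 to 72 h, and the labels name no other agent or allele. YTHDC1 is the nuclear reader of m6A, a methyl mark on RNA, and knockdown with siRNA lowers a transcript without removing its gene.

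The table gave 1 value per gene for the whole comparison. No value per library could therefore be shown, library depth is unknown, and replicate SDs cannot be given. Each fold change stands with the SE of the authors' DESeq2 model over all 12 libraries, and adjusted p-values are from its Wald test with Benjamini-Hochberg adjustment. The labels do not tie the libraries to separate cultures, so the p-values rest on library-to-library spread that may be technical. In bulk RNA, fewer cells that express a gene and less RNA per cell cannot be told apart. YTHDC1 itself changed by -71.7% in siYTHDC1 (-1.82 on the log2 scale, SE 0.11, adjusted p = 5.29e-59). All 5 epithelial markers looked up were in the table, at mean normalised counts between 58.4 and 27600, whereas 1 of 5 blood, 1 of 3 endothelial and 3 of 4 stromal markers were, at counts up to 194.

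AP-1 is a dimer of leucine zipper proteins. JUN proteins can pair with each other or with a FOS protein, whereas FOS proteins need a JUN partner, and the dimers bind a short palindrome in promoters and enhancers. The genes of FOS, JUN, EGR1 and their relatives are switched on within minutes by growth factors, serum or stress, through MAP kinases that act on factors such as SRF and its ETS partners, and the transcripts are then rapidly degraded. FOSL1 (FRA-1), FOSL2 (FRA-2) and JUND respond more slowly or are held at a steady level, and FOSL1 is known as a driver of migration in carcinoma cells. JUNB is often described as a brake on JUN. IER2 and IER3 are short, quickly induced genes that were named for this behaviour.

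The JUN family shows how differently the promoters of related genes can read. The 150 bases before the start of the canonical transcript are printed for its 3 members because their fold changes did not share a direction. Capitals mark a GC box, a CCAAT box or a TATA box on either strand, and the letters are read 5′ to 3′ on the strand of the gene from GRCh37. The JUN stretch is chr1:59249720-59249869 (minus strand), that of JUNB is chr19:12902150-12902299 (plus strand), and that of JUND is chr19:18392433-18392582 (minus strand).
JUN: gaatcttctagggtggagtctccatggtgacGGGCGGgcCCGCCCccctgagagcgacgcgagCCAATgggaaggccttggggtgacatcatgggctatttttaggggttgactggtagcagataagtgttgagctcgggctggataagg
JUNB: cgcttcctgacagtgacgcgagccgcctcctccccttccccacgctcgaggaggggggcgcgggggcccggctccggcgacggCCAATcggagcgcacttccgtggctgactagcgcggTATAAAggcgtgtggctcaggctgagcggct
JUND: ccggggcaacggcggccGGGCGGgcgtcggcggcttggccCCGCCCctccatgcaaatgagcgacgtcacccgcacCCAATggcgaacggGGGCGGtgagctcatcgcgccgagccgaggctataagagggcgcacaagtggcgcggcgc

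Within 250 bases before the start, all 3 JUN family promoters held a CCAAT box, bound by the NF-Y complex, which 34.1% of 14014 protein-coding promoters of the same length did. So did IER3, 47 to 43 bases before the start, and no other member. The TATA box (TATAAA) of JUNB, where the basal machinery docks, lay 31 to 26 bases before the start. FOS had one as well, 33 to 28 bases before, and no other member matched these letters, against 5.61% of all promoters. A CRE (TGACGTCA), the element of CREB and ATF proteins, was found for JUND, 200 to 193 bases before the start (2.84% of all promoters). The GC box (GGGCGG), bound by SP1, was present in 7 of 9 members, all but JUNB and EGR1, and in 70.0% of all promoters. EGR1 carried a pair of CArG boxes, the element bound by SRF, as CCATATTAGG (105 to 96 bases before the start) and CCATATATGG (83 to 74), where 1.04% of all promoters had a match. It also held an EGR motif (GCGNGGGCG, 15.4% of promoters), the element that EGR1 itself binds. No member held the exact AP-1 palindrome TGANTCA in this window (3.75% of promoters). Near forms of it and of the CRE were not searched, such as the TGACATCA in the printed JUN stretch. These matches describe letters and do not show binding.

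The levels of the members spanned a wide range. Per kb of canonical transcript, FOSL2 had the highest mean normalised count at 541, followed by JUND at 482, FOSL1 at 292, IER2 at 274, JUNB at 214, JUN at 149 and IER3 at 110. FOS and EGR1, the most transient of the set, were far below at 19.5 and 7.41. On this scale FOSL2 made up 63.4% of the summed FOS family level, FOSL1 34.3% and FOS 2.28%, while JUND made up 57.0% of the JUN family, JUNB 25.4% and JUN 17.6%. These levels are the authors' means over both groups and carry no SD, so neighbours in the order cannot be tested.

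**Figure D1:**
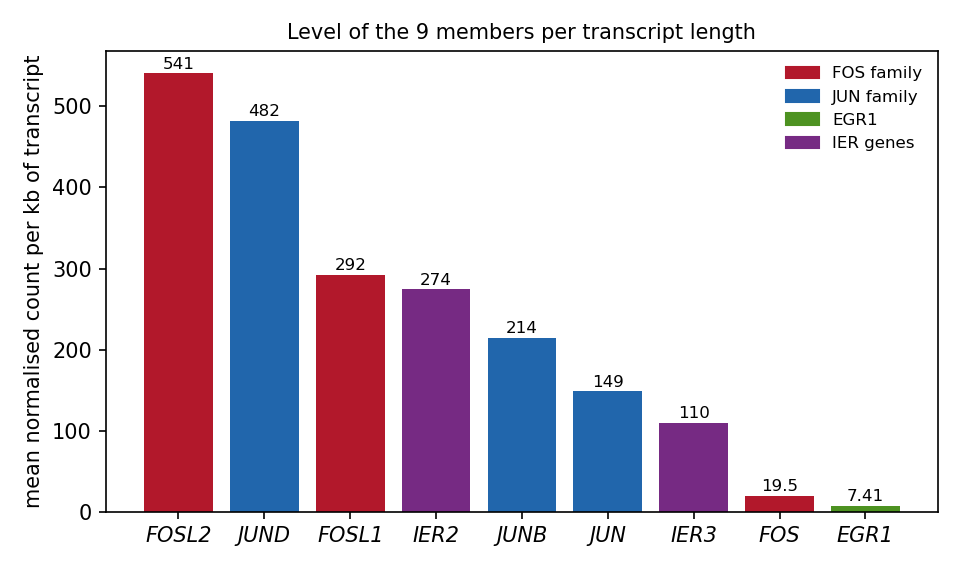
Mean normalised count over all 12 libraries per kb of canonical transcript (y axis) for each member (x axis), coloured by family; bars carry no error because the table gives none. FOSL2 (541) and JUND (482) lead, and FOS (19.5) and EGR1 (7.41) are lowest.

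Depletion of YTHDC1 was then compared with the control for each member. FOSL1 and FOSL2 rose, JUNB and IER2 fell, and the set had no common direction, with 5 members above 0 and 4 below. A gene was called where its adjusted p was under 0.001 and its log2 fold change exceeded 0.5 in either direction. By this rule 1 of 9 members was called higher, where 3.05% of all genes were, and 0 of 9 were called lower, where 3.71% were. Without a limit on size, 2 members were higher (9.13% of all genes) and 2 lower (9.04%) at an adjusted p under 0.001. At an unadjusted p under 0.05, 4 were higher (20.0% of all genes) and 3 lower (19.4%). The shares of all genes include those with few counts, whereas all members but FOS and EGR1 had a mean of at least 100. Of the 10410 genes at or above that mean, 340 were called higher and 458 lower. Without the limit on size 1711 were higher and 1656 lower, and at the unadjusted p 3183 and 2947. Over 9 genes the counts of members carry little weight, and they were not tested against the background. The median log2 fold change of the members was 0.20, that of all rows -0.0023, and the median size of the change 0.29 against 0.24.

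Within the FOS family the abundant members were higher. FOSL1 (ENSG00000175592.4, chromosome 11, 65659520 to 65668044, minus strand, GRCh37) had a mean normalised count of 498 and rose by 0.58 in log2 units (SE 0.14, adjusted p = 0.000240). This is 49.8% higher in siYTHDC1, with a 95% interval from 23.6% to 81.6%, so the interval of the fold change (0.31 to 0.86) reached below the limit of 0.5. FOSL2 (ENSG00000075426.7, chromosome 2, 28615315 to 28640184, plus strand), at a count of 3628, was 23.1% higher (16.8% to 29.8%). Its log2 fold change of 0.30 had the smallest error of the set (SE 0.04, adjusted p = 3.41e-13) and stayed under the limit. FOS (ENSG00000170345.5, chromosome 14, 75745529 to 75748933, plus strand) had 41.0 counts and lay at -0.18 (SE 0.19, adjusted p = 0.544), with an interval from -31.9% to 14.6%. A change in FOS within these bounds was not detectable at its level. The difference between FOSL1 and FOS was 0.76 on the log2 scale (95% interval 0.30 to 1.23), whereas that between FOSL1 and FOSL2 was 0.28, with an interval from -0.0046 to 0.57. Such intervals take the errors of the genes as independent, since the table holds no covariance.

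The JUN family went both ways. JUNB (ENSG00000171223.4, chromosome 19, 12902300 to 12904129, plus strand, 392 counts) changed by -27.6%, with an interval from -33.7% to -21.0%. Its log2 fold change was -0.47 (SE 0.06, adjusted p = 1.32e-11), just inside the limit of 0.5, and it was the most negative of the 9. JUN (ENSG00000177606.5, chromosome 1, 59242517 to 59249720, minus strand, 484 counts) lay 15.0% above the control (4.11% to 27.1%, adjusted p = 0.0215). JUND (ENSG00000130522.4, chromosome 19, 18390504 to 18392432, minus strand, 929 counts) lay at 14.8% (4.17% to 26.4%, adjusted p = 0.0196). Neither passed the adjusted p of 0.001, although both intervals left out 0. JUN and JUND had nearly the same log2 fold change, with a difference of 0.0033 (95% interval -0.20 to 0.20). JUNB stood apart from both, by 0.67 from JUN (0.48 to 0.86) and by 0.67 from JUND (0.48 to 0.85).

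EGR1, the immediate early factor with the lowest level, was not resolved. With 23.3 counts (ENSG00000120738.7, chromosome 5, 137801168 to 137804992, plus strand) its log2 fold change of 0.29 had the largest SE of the set, 0.25 (adjusted p = 0.412). The interval ran from -12.2% to 71.4%. The IER genes both lay below 0. IER2 (ENSG00000160888.6, chromosome 19, 13261225 to 13265725, plus strand, 579 counts) changed by -18.7% (-25.7% to -11.1%), or -0.30 on the log2 scale (SE 0.07, adjusted p = 4.60e-05). IER3 (ENSG00000137331.11, chromosome 6, 30710976 to 30712325, minus strand, 136 counts) showed -0.26 (SE 0.12) and an adjusted p of 0.0723. Its interval, from -28.9% to -2.26%, left out 0. JUNB and IER2, the members that fell, both lie on chromosome 19, as JUND does, and their fold changes differed by 0.17 (95% interval -0.01 to 0.35). The 95% interval of the difference left out 0 for 19 of 36 pairs, without adjustment for the number of pairs. None of these were direct neighbours in the order of fold change, but sorting itself makes neighbours close.

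**Figure D2:**
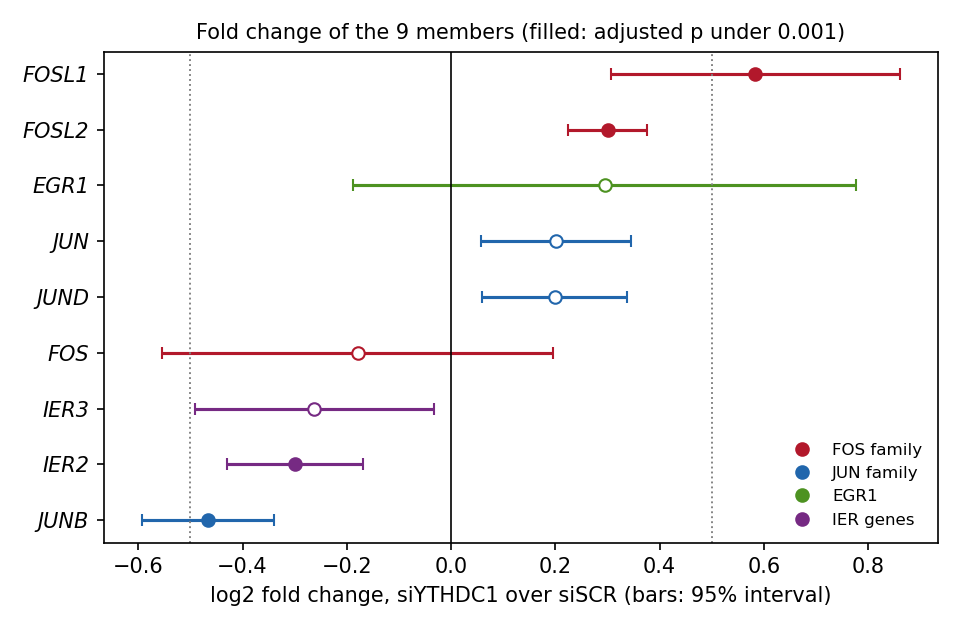
Log2 fold change of siYTHDC1 over siSCR (x axis) for the 9 members (y axis), with 95% intervals from the deposited SE; filled points have an adjusted p under 0.001 and dotted lines mark 0.5 in either direction. FOSL1 (0.58) and FOSL2 (0.30) lie to the right, IER2 (-0.30) and JUNB (-0.47) to the left, and the intervals of EGR1 and FOS cross 0.

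FOSL1 also stood apart in its error. Its SE of 0.14 was 2.30 times the median of 0.06 among 3101 genes within 1.5-fold of its level, and 99.5% of those genes had a smaller one. JUND came next, at 1.45 times the median of its level (96.3% of genes smaller), and JUN followed at 1.18 times (86.9%). The other members lay between 0.94 and 1.14 times, with JUNB (0.96), FOS (0.97) and EGR1 (0.94) slightly under the median of genes like them. The spread of FOSL1 between libraries was thus wide for its level, and which libraries carried it cannot be read from the table. In size of change, FOSL1 exceeded 96.0% and JUNB 91.2% of the genes at their level, and FOS 31.8%.

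**Figure D3:**
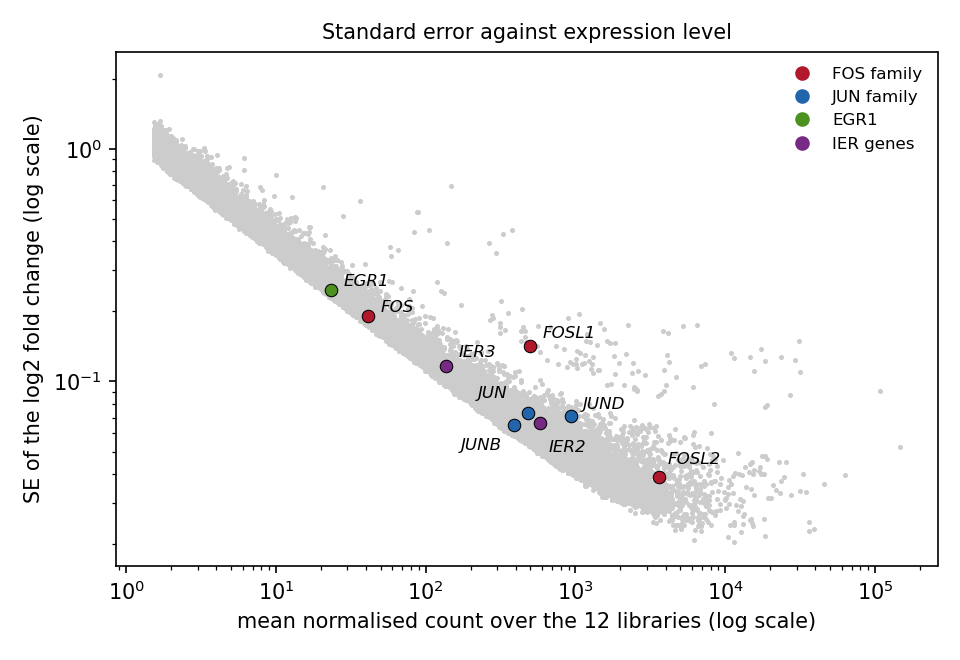
SE of the log2 fold change (y axis, log scale) against mean normalised count (x axis, log scale; 12 libraries) for every gene of the table (grey) and the 9 members (coloured by family). The error falls as the count rises, and FOSL1 (SE 0.14 at 498 counts) lies well above the main cloud while JUNB (0.06 at 392) lies within it.

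The members share a low exon count, which the choice by symbol did not use. All 9 had at most 4 exons, against a median of 9 for 14014 protein-coding genes of the table, of which 18.4% had 2 to 4. In 3 members, the JUN family, there was 1 exon. Genes with 1 exon were 2.21% of the protein-coding genes. Their median log2 fold change was -0.04, and 5.16% of them were called higher and 10.6% lower, against 3.58% and 4.85% of all protein-coding genes. The span was under 5000 bases in 6 members, which held for 8.25% of genes. FOSL2 spanned 24870 bases, and its transcript of 6713 bases was longer than the median of 3336. The letters GGACT, a common form of the m6A motif, occurred at a median of 1.18 per kb in the members' transcripts and of 0.94 in all (quartiles 0.57 and 1.39). IER3 (3.23 per kb) and IER2 (2.84) lay above the upper quartile, together with JUN (1.54) and FOS (1.43), whereas EGR1 had 0 and JUNB 0.55. The motif says nothing of whether a transcript was methylated here.

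Rapid decay of these transcripts is commonly linked to AU-rich elements in the 3′ UTR. The core letters TATTTAT were present there in 6 of 9 members and in 35.2% of genes with a 3′ UTR. They were absent from JUNB, IER2 and EGR1. Among the 4 members with an adjusted p under 0.001, FOSL1 held 1 copy and FOSL2 held 2, whereas JUNB and IER2, the lower pair, held 0. The other members did not all follow this split. IER3 held the most copies, 4, and FOS held 2, yet both lay below 0, while EGR1 held 0 and lay above 0. JUN and JUND held 1 each and lay above 0. A link between copies and direction was not tested. Over all genes with these letters the median log2 fold change was 0.03, 4.33% were called higher and 4.53% lower, against 3.57% and 4.85% of all genes with a 3′ UTR. The longer form TTATTTATT, found in 9.32% of such genes, occurred once each in FOS, at bases 646 to 654 of its 3′ UTR, and in FOSL2, at bases 3917 to 3925. Both sites are shown with the 9 letters in capitals.
FOS: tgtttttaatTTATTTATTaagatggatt
FOSL2: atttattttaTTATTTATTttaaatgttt

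Among the measured neighbours of the members, C11orf68 and KIAA1683 alone were called. Over all genes 3.05% were called higher and 3.71% lower, and the neighbours were not tested against these shares. Of 11 measured genes within 100 kb of FOSL1, 1 was called higher, C11orf68 (0.52, SE 0.10, adjusted p = 5.63e-06), and 5 lay above 0. Around FOSL2, 1 of 6 lay above 0. Among 12 genes near JUNB the median log2 fold change was -0.06 and 0 were called. Among 10 near IER2 it was -0.24 with 0 called and 1 above 0. The lowest and highest fold changes near IER2, -0.90 and 1.24, came from genes with 3.33 and 6.38 counts. The best counted gene there, at 1597 counts, lay at -0.0005. KIAA1683, 5194 bases from JUND, was called higher (0.65, SE 0.16, adjusted p = 0.000314). Several members overlap another gene. HOOK2, whose span on the other strand covers JUNB in the annotation, showed -0.08 (SE 0.10), and the lncRNA CTC-250I14.6, opposite to IER2, showed -0.43 (SE 0.23, adjusted p = 0.143) at 39.1 counts. FOSL2 overlaps AC104695.3 on the other strand (2.82 counts) and RP11-373D23.2 on its own (37.0 counts, -0.0088). The library kit kept the strand, but the sources used here do not say whether the counting used it. Reads of a gene and its antisense partner may therefore not have been separated. The measured partners of FOSL2 and IER2 had far fewer counts than these members, whereas HOOK2 had 133 counts against 392 for JUNB.

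The related bZIP factors, many of which dimerise with JUN proteins, lay above 0 in 13 of 15 cases, where 49.7% of all genes did. Of 16 listed genes 15 were in the table (BATF was not), and the median log2 fold change was 0.34. By the call rule 3 were higher and 0 lower, where 3.05% and 3.71% of all genes were. These shares were not tested against each other. ATF3, a stress-induced repressor that pairs with JUN, rose by 1.09 (SE 0.17, 55.9 counts). CREB5 rose by 0.71 (SE 0.16, 69.1 counts) and BATF3 by 0.60 (SE 0.13, 89.4 counts). MAFG, a small MAF protein, was higher at 0.35 (SE 0.04, adjusted p = 1.51e-14), under the limit. FOSB, the remaining FOS family gene, was looked at after its value was seen, and had 0.96 at 21.3 counts (SE 0.28, adjusted p = 0.00313), short of the threshold. This list and those that follow were also chosen with earlier results of these data known, so their counts are descriptive.

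Among other immediate early response genes all calls were on the higher side. Of 40 listed 37 were measured (EGR2, EGR3 and EGR4 were not), and 8 were called higher and 0 lower (3.05% and 3.71% of all genes). At an adjusted p under 0.001 of any size 16 were higher and 2 lower (9.13% and 9.04% of all genes). Among the 10410 genes with a mean of at least 100, 1711 were higher and 1656 lower at this p. The median of the listed genes was 0.17. The called genes included KLF2 (0.99, SE 0.12) and KLF4 (0.54, SE 0.10), Krüppel-like zinc finger factors, and the orphan receptor NR4A3 (0.69, SE 0.16). ERRFI1, an inhibitor of the EGF receptor (0.61, SE 0.04), and the small GTPase RHOB (0.67, SE 0.15) were also higher. So were the helix-loop-helix inhibitors ID1 (0.53, SE 0.06), ID2 (0.72, SE 0.05) and ID3 (0.66, SE 0.05). This list holds SRF, BMP and NF-kB responsive genes alike, and whether it differs from the members was not tested.

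Upstream kinases and promoter-binding factors had a median near 0 but moved both ways. All 28 were measured, with a median of 0.02. At an adjusted p under 0.001 of any size, 6 were higher and 4 lower (9.13% and 9.04% of all genes). Among the 10410 genes with a mean of at least 100, 1711 were higher and 1656 lower at this p. With the limit on size, 0 of the 28 were called higher and 1 lower (3.05% and 3.71% of all genes). The one called was RPS6KA4, which encodes the kinase MSK2 (-0.57, SE 0.07). Under the limit of 0.5, MAP2K2, which encodes the ERK kinase MEK2, was higher (0.29, adjusted p = 5.13e-11) and MKL2, an SRF coactivator, lower (-0.30, adjusted p = 2.40e-10). SRF itself (0.45, adjusted p = 2.35e-09) and MAPK3 (-0.46, adjusted p = 2.08e-08) also lay under the limit, and were named after their values were seen. RNA levels do not report kinase activity. Feedback inhibitors of MAP kinase signalling had a median of 0.20 over 18 genes, with 2 called higher and 1 lower (3.05% and 3.71% of all genes). DUSP5, a nuclear ERK phosphatase, rose by 0.71 (SE 0.04) and SPRY4, an inhibitor of receptor signalling, by 0.52 (SE 0.06), while DUSP7 fell by 0.54 on the log2 scale (SE 0.12). SPRED2 was higher under the limit (0.39, adjusted p = 1.95e-09). Of the EGR corepressors NAB1 lay at 0.25 (adjusted p = 6.01e-06) and NAB2 at 0.11 (adjusted p = 0.461).

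Genes with well-known AP-1 sites divided. Among 21 of 25 in the table, 3 were called higher and 1 lower (3.05% and 3.71% of all genes), with a median of 0.13. HMOX1, the heme oxygenase, rose by 0.93 (SE 0.12), and HBEGF, an EGF receptor ligand, by 0.76 (SE 0.18, 48.3 counts). The cytokine IL11 fell by 1.19 on the log2 scale (SE 0.11). These genes respond to other factors as well, and their values do not measure AP-1 activity.

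**Figure D4:**
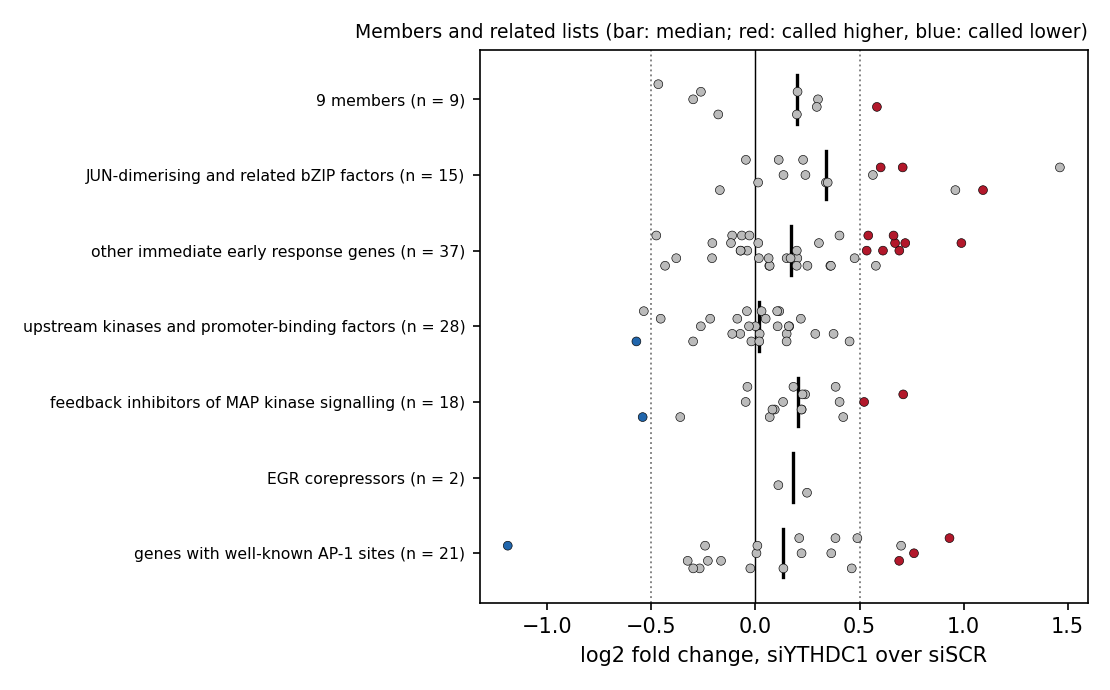
Log2 fold change of siYTHDC1 over siSCR (x axis) for the 9 members and the genes of 6 related lists (y axis), 1 point per gene, with the median as a black bar, called genes in red (higher) or blue (lower) and dotted lines at 0.5 in either direction. The bZIP list has the highest median (0.34), and the 8 called immediate early genes all lie to the right.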

How the data were processed

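Total RNA-seq of 12 libraries was analysed from the authors' table of siYTHDC1 over siSCR. By the study's methods, reads were aligned by STAR (hg19) and counted by HTSeq, and the authors then ran DESeq2 with a term for sequencing batch. The deposited signal is the mean of normalised counts over all libraries. The deposited fold change and SE are on the log2 scale, the Wald statistic is a score given by the authors, and the p-value and adjusted p-value (Benjamini-Hochberg over all 22564 rows, reproduced within 1.5e-15) are as deposited. No count model was run here, and the columns of the comparison are printed as the authors' values.

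Intervals of 95% are normal intervals from the fold change and its SE. Gene IDs matched a GENCODE annotation of GRCh37 for 96.6% of rows, which gave coordinates, canonical transcripts and sequences and can differ from the release used for counting. Named were the members, every called gene and the 3 largest statistics per list, and neighbours within 100 kb that were called or overlapped. FOSB, SRF and MAPK3 were named besides. A called gene of the AP-1 site list is not reported here. The rule for members used symbols alone, but members and lists were chosen with earlier results of these data known. The thresholds for calls (adjusted p of 0.001, log2 fold change of 0.5) follow the methods of the study. The step that makes calls was tested on simulated fold changes drawn with the deposited SEs. Alternatives were an adjusted p of 0.05, other limits, a test of a change over 0.5, centring, a rescaled statistic and a minimum mean of 100. Python 3.11.15, pandas 2.3.3 and scipy 1.17.1 were used.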

Additional observations from a re-analysis of the deposited data

How the results depend on the processing

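The call of FOSL1 depended on how the size limit entered and also on the scale of the Wald statistic. With a log2 fold change over 1, or with a test of a change larger than 0.5, 0 members were called higher. The same held with the statistic divided by its robust spread of 2.14. That setting left the log2 fold change of FOSL1 at 0.58, above 0.5, so the call was lost on the p-value and not on size. With no limit 2 were called higher and 2 lower, as FOSL2, JUNB and IER2 were added. An adjusted p of 0.05, centring (a shift of 0.01) and restriction to genes with a mean of at least 100 gave 1 higher and 0 lower, as reported, and no member changed sign. The median of the members was 0.19 after centring and 0.20 in the restricted set, which left out FOS and EGR1. No paired analysis was possible because the table holds no values per library, and leaving out replicates in turn was not run for the same reason. The level limits FOS and EGR1 most: their 95% intervals extend 0.38 and 0.48 to either side on the log2 scale.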
